A study of Mus musculus with 6 samples.

Results

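The genes described here make cholesterol and move it within and out of the cell, and they were followed in bone cells of mice given dexamethasone, a synthetic glucocorticoid. They were chosen by name as 28 genes of cholesterol synthesis, its control and sterol transport, of 29616 genes in the table. RNA was sequenced from 3 control libraries and 3 dexamethasone libraries of mice that the labels give as C57BL/6 and the methods of the study as C57BL/6J. According to the methods of the study, mice aged 8 weeks at the start received a daily dexamethasone dose of 0.08 µg/g over 4 weeks and the controls of this model saline. Osteocalcin-positive cells were sorted from bones cleared of marrow, whereas the labels name only bone cells. The sources used here do not tell if a library was made from 1 mouse or from several, so the p-values measure the spread between these libraries, which may be technical. The comparison asked how the sterol genes of these cells differed after dexamethasone.

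Cells build cholesterol from acetyl-CoA, first through the mevalonate steps to the isoprenoid farnesyl diphosphate, then through squalene and lanosterol to cholesterol. When sterols in the endoplasmic reticulum run low, the SREBP transcription factors are carried by their escort SCAP to the Golgi, cut free and sent to the nucleus, where they switch on the genes of synthesis and uptake. The Insig proteins hold SCAP back when sterols are ample, and a surplus is exported by ABC transporters under the oxysterol receptors LXR. In bone, mesenchymal cells take up lipoproteins and also make sterols, and isoprenoid synthesis is the step at which nitrogen-containing bisphosphonates act in osteoclasts.

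Most of these genes were higher with dexamethasone. Of the 28 members, 27 had enough reads to be tested with limma on log2-transformed normalized counts. Abcg1, a sterol exporter, was left out with 1, 1 and 0 reads in the controls, replicates 1 to 3, and 3, 2 and 0 reads with dexamethasone. These counts were at or under the 3 reads that a count of 0 allows, so no difference was detectable at this depth. An adjusted p-value under 0.05 was reached upward by 22 of the 27 tested members and downward by 3, where 37.2% of all tested genes passed upward and 35.2% downward. The genes that fell were Ebp, Insig2 and Abca1, and Hmgcs1 and Tm7sf2 did not pass. With the additional requirement of a log2 fold change of at least 1, as the study set it, 5 members were called higher (Acat2, Stard4, Idi1, Lss and Npc1) and 0 lower, where 11.7% of all tested genes were called higher and 10.6% lower. At the same total per library this split was 3 higher and 1 lower, since Lss and Npc1 lost and Ebp gained the required fold. The median log2 fold change of the tested members was 0.54, where that of all tested genes was 0.00071. All 3 dexamethasone libraries lay above all 3 controls for 21 members, where 38.4% of all tested genes did so, and below them for 3, where 36.4% did so. Summed over the 28 members, the normalized counts were 167718, 184383 and 170684 in the controls, replicates 1 to 3, and 268472, 250425 and 265043 with dexamethasone.

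**Figure D1:**
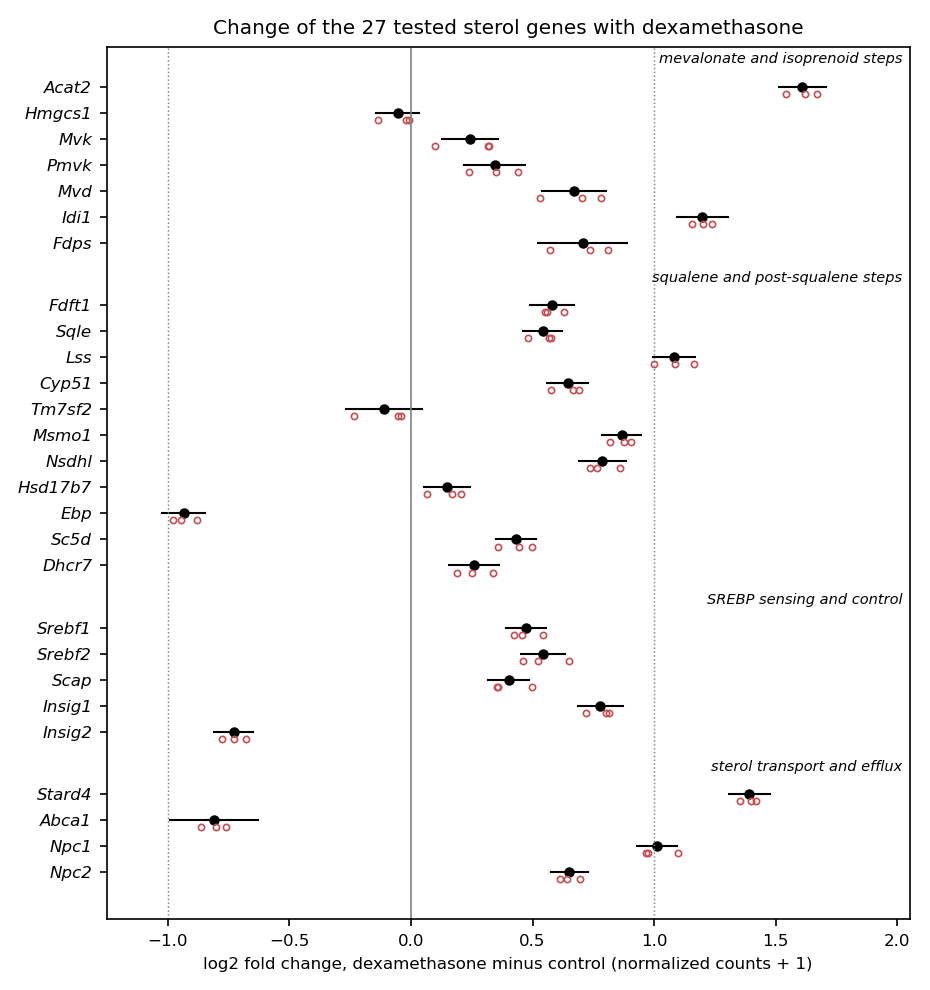
Log2 fold change of each tested member, dexamethasone minus control, on the x axis, with members on the y axis grouped by role and bars for the 95% confidence interval from limma. Acat2 stood farthest to the right at 1.61, Ebp, Insig2 and Abca1 lay left of 0, and the intervals of Hmgcs1 and Tm7sf2 crossed 0.

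Other cell features moved along with the sterol genes. The 8 proliferation markers were all called higher, where 11.7% of all tested genes were. Their summed level was 33047 to 35562 normalized counts in the controls and 210109 to 223627 with dexamethasone. The log2 fold changes were 2.74 for Mki67, 2.72 for Top2a and 2.38 for Cdk1. Of the 10 osteoblast markers, 2 were called higher and 8 lower, where 11.7% and 10.6% of all tested genes were. The values were 5.25 for Spp1, -1.88 for Col1a1 and -1.05 for Col1a2. Osteocalcin itself (Bglap), on which the cells were sorted, has near-identical copies that leave its count uncertain and is named here after its values were seen. It had 98.2, 102 and 122 normalized counts in the controls, replicates 1 to 3, and 9.54, 12.0 and 15.1 with dexamethasone. Among the other cell types, the 6 of 8 macrophage markers in the table summed to 1475 to 1495 normalized counts in the controls and 1478 to 1667 with dexamethasone. Of the 5 that were tested, 3 were called higher and 1 lower, where 11.7% and 10.6% of all tested genes were. The log2 fold changes were -1.50 for Lyz2, 1.21 for Cd14 and 1.78 for Cd68. The 6 pan-hematopoietic markers summed to 94.0 to 129 and 776 to 823, with 3.20 for Itgb2, 4.11 for Cd53 and -1.77 for Coro1a (adjusted p = 0.0634 without the trend), while Ptprc and Vav1 were near 0 in every library. Most of the sum with dexamethasone was Itgb2 and Cd53, with means of 503 and 283. Of the 4 tested, 2 were called higher and 2 lower, where 11.7% and 10.6% of all tested genes were. The second called lower was Laptm5, named after its values were seen (-1.49, limma adjusted p = 0.00235). The 6 of 8 endothelial markers in the table summed to 2160 to 2280 and 3255 to 3868. Most of this sum was Vwf, with means of 1825 in the controls and 3097 with dexamethasone. The log2 fold changes were 0.76 for Vwf, 0.25 for Kdr and 0.74 for Pecam1, which had 11 to 31 reads per library. Of the 4 tested, 3 passed upward, where 37.2% of all tested genes did so, and 0 were called. Tek did not pass (-0.75, limma adjusted p = 0.146) and Erg had at most 5 reads in any library, both named after their values were seen. Pecam1 (limma adjusted p = 0.0419) did not pass with edgeR (0.0512), with DESeq2 (0.0991), at the same total (0.0816) or without control replicate 1 (0.207), and Kdr did not pass at the same total (0.124), while Cdh5 had at most 2 reads in any library. The 6 adipocyte markers summed to 227 to 280 and 167 to 179, mostly from Plin4 (-0.72), the only 1 tested. Adipoq had at most 9 reads in any library. Cfd, too low to be tested, had 1, 4 and 3 reads in the controls, replicates 1 to 3, and 19, 14 and 15 with dexamethasone. In bulk RNA, fewer cells of a type and less RNA per cell cannot be told apart, and the part of these shifts in the sterol results was not tested. Counts of replicates differed beyond sampling noise (chi-square per degree of freedom 3.56 to 28.9 over the 6 pairs), at 72596611 to 89910728 reads per library.

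The promoter windows of 7 members, taken upstream of the start sites, show the motifs on which this pathway is usually regulated, for the member that rose most, the next step, which did not pass, and members that rose or fell. The windows were taken from RefSeq on GRCm38.p6, a build other than the GRCm39 of the files, and are written 5′ to 3′ on the strand of the gene. Capitals mark CACCCCAC (the core of a sterol regulatory element), CCAAT (the box of the factor NF-Y) and GGGCGG (the GC box of Sp factors), each on either strand, and none of them overlapped another here. The windows were Acat2 at chr17:12960726-12960925 (minus strand), Hmgcs1 at chr13:119690151-119690350 (plus), Idi1 at chr13:8885456-8885605 (plus), Lss at chr10:76531455-76531604 (plus), Insig1 at chr5:28071162-28071411 (plus), Insig2 at chr1:121332590-121332739 (minus, the most upstream of 3 listed starts) and Ebp at chrX:8193513-8193712 (minus).
Acat2: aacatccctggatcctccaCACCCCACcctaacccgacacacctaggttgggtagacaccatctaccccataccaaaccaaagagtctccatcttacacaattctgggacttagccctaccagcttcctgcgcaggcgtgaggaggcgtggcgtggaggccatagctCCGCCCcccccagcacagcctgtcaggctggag
Hmgcs1: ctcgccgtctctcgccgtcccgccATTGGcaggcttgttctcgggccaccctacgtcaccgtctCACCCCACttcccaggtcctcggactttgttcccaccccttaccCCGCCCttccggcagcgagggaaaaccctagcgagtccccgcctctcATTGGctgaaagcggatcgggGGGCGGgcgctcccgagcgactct
Idi1: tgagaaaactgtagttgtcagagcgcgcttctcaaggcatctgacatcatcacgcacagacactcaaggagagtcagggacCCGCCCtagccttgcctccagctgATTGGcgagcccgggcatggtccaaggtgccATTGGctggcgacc
Lss: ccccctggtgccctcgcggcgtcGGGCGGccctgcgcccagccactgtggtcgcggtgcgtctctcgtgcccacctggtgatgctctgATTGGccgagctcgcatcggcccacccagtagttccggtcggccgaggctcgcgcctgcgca
Insig1: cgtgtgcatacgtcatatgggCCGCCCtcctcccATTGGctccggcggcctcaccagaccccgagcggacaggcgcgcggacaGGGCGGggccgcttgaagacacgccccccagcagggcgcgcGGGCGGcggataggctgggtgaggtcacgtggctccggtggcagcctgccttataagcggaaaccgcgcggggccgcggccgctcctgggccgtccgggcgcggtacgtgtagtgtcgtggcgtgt
Insig2: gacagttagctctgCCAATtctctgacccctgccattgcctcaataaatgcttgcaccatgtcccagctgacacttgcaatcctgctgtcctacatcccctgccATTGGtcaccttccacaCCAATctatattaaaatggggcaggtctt
Ebp: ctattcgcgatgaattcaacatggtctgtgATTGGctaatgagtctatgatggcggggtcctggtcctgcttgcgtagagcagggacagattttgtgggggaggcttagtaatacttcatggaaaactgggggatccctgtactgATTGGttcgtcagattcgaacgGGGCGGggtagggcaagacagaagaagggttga
RefSeq windows, which run from 250 bases before to 50 bases after a start, were listed for 22 of the 28 members in 30 windows. Fdps, Fdft1, Sqle, Stard4, Abcg1 and Npc1 had no entry. The sterol element core stood in 2 of the 30 member windows (6.67%) and in 2.87% of all 32851 windows. It lay 181 bases before the start of Acat2, which rose 3.05-fold, and 136 bases before that of Hmgcs1, which did not pass. CCAAT was present in 20 member windows (66.7%), against 37.4% of all windows, and GGGCGG in 25 (83.3%), against 35.7%. CCAAT matches stood in the windows of Ebp and Insig2, which fell, as in those of Idi1, Lss and Insig1, which rose. For Insig2 they stood only at the most upstream of its 3 listed starts, and which start these cells used was not tested. A match of letters is a description and not a measured binding site.

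Of the 7 mevalonate members 6 rose, and the log2 fold changes were highest for Acat2 and Idi1. Acat2 (ENSMUSG00000023832), the cytosolic thiolase that joins 2 acetyl-CoA and opens the pathway, had 3159, 3683 and 3288 normalized counts in the controls, replicates 1 to 3, and 10711, 9806 and 10357 with dexamethasone. Every dexamethasone library lay above every control, with a 3.05-fold ratio and a change of 1.61 on the log2 scale (limma adjusted p = 4.23e-20, SE 0.0467). Only 66.1% of the 75-base positions of its transcripts were unique to it, the rest being shared with Acat3 and Tcp1. The count is therefore uncertain. Acat3 had 24.5 to 33.4 normalized counts in the controls and 12.4 to 29.1 with dexamethasone (log2 fold change -0.54, adjusted p = 0.121). Tcp1, a chaperonin subunit, rose from 30179 ± 601 to 35515 ± 609 (SD, n = 3). Both neighbours were named after their values were seen. The next enzyme, Hmgcs1 (ENSMUSG00000093930), which builds HMG-CoA, had 14603, 16449 and 14857 normalized counts in the controls and 15072, 13909 and 15188 with dexamethasone, in replicate order. Its groups overlapped, with a log2 fold change of -0.05 (95% interval -0.14 to 0.03, limma adjusted p = 0.26). At the same total per library the value was -0.17 (adjusted p = 0.000144), against a median over all genes of -0.11 in that scaling. After quantile normalization it was -0.27 (adjusted p = 6.79e-07), against a median over all genes of -0.07, so Hmgcs1 passed downward in both scalings. Genes on the other strand overlapped 12.1% of its exon bases. The kinases that phosphorylate mevalonate had the lowest log2 fold changes among the 6 that rose. Mvk, mevalonate kinase, had 1978, 2130.2 and 1884 normalized counts and then 2482, 2134 and 2489.5, every dexamethasone library above every control. The lowest of these, 2134, was barely above the highest control, 2130.2, and the part of library scaling in this order was not tested. Mvk had a log2 fold change of 0.24 (adjusted p = 0.000388). Pmvk, which adds the second phosphate, had 802, 843 and 773 and then 1094, 952 and 1028, without overlap, and one of 0.34 (adjusted p = 2.21e-05).

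Mvd, the decarboxylase that yields isopentenyl diphosphate, had 1865, 2325 and 2016 normalized counts in the controls and 3538, 2975 and 3349.97 with dexamethasone, and rose with a log2 fold change of 0.67 (adjusted p = 8.48e-10). Idi1 (ENSMUSG00000058258), the isomerase that makes the second isoprene unit, had 2276, 2749.6 and 2475 and then 5732, 5561 and 5874. Its groups lay far apart, at a 2.29-fold ratio and a log2 fold change of 1.20 (adjusted p = 8.27e-17, SE 0.0501). Of its 75-base positions 76.4% were unique, and genes on the other strand overlapped 9.22% of its exon bases. Fdps, farnesyl diphosphate synthase and the enzyme that bisphosphonates inhibit, had 248, 251 and 254 and then 441, 374 and 419 normalized counts. It rose without overlap of the groups, with a log2 fold change of 0.71 (adjusted p = 1.13e-07), but its count is uncertain, because genes on the same strand overlapped 26.7% of its exon bases and 76.5% of its positions were unique.

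**Figure D2:**
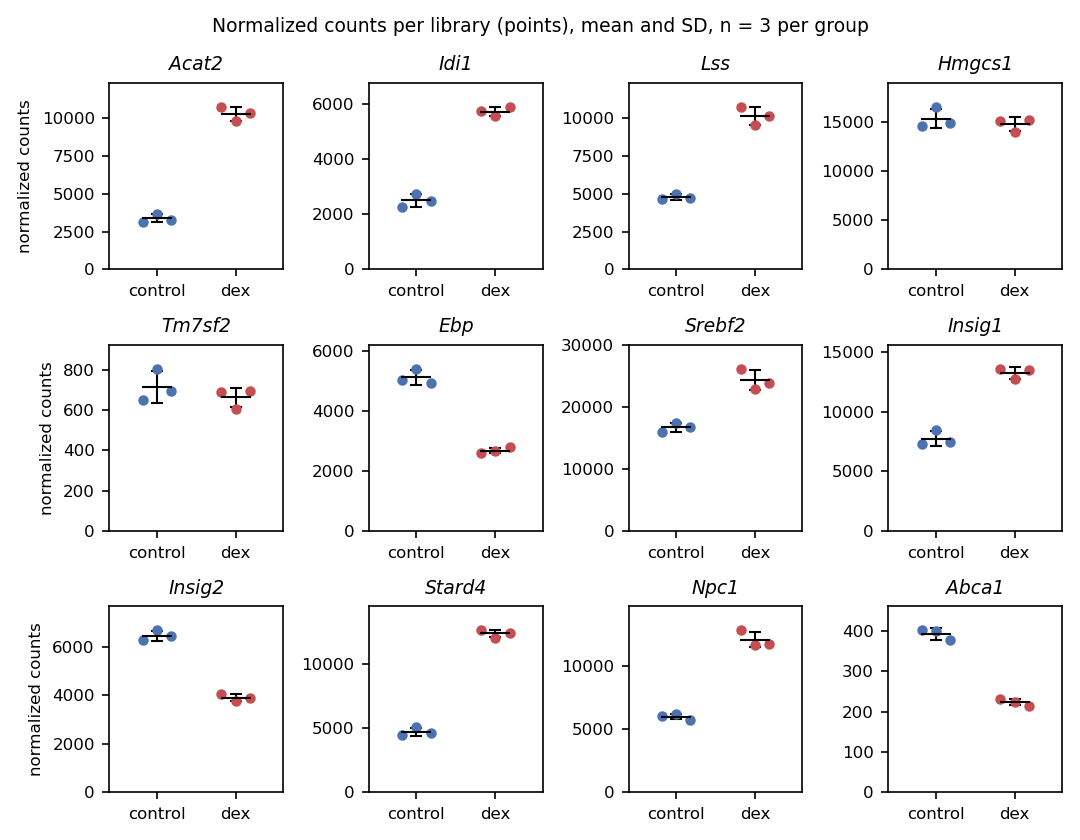
Normalized counts (y axes) of members in each library, with points for the 3 control and 3 dexamethasone (dex) libraries and bars for the mean and SD. The points of Acat2, Idi1, Lss, Stard4 and Npc1 separate upward, those of Ebp, Insig2 and Abca1 downward, and those of Hmgcs1 overlap.

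Past farnesyl diphosphate, 9 of the 11 members rose, Ebp fell and Tm7sf2 did not pass. Fdft1, squalene synthase and the first step committed to sterols, had 5172, 5943 and 5283 normalized counts in the controls and 7984, 8051 and 8443 with dexamethasone, in replicate order. Sqle, the squalene epoxidase and a control point of the pathway, had 12039, 13258 and 12446 and then 18761, 17554 and 18613. Both rose, with log2 fold changes of 0.58 and 0.54 (limma adjusted p = 1.43e-11 and 5.78e-12), though genes on the other strand overlapped 18.3% of the exon bases of Fdft1. Lss (ENSMUSG00000033105), which closes the rings to lanosterol, had 4635, 4981 and 4731 and then 10703, 9551 and 10142 normalized counts. It more than doubled, with a log2 fold change of 1.08 (adjusted p = 1.25e-17, SE 0.0413), which was 0.97 at the same total and 0.89 after quantile normalization, under the required fold. Cyp51, the lanosterol demethylase, had 17345, 19048 and 17296 and then 28885, 26615 and 28377 and rose by 0.64 on the log2 scale (adjusted p = 5.23e-13). The oxidase and the dehydrogenase that strip the next methyl groups from the ring, Msmo1 and Nsdhl, rose as well. Msmo1 had 12404, 13488 and 12192 normalized counts and then 23271, 22341 and 23743, a log2 fold change of 0.87 (adjusted p = 5.25e-16). Nsdhl had 2672, 3053 and 2711 and then 4775, 4673 and 5096, a log2 fold change of 0.79 (adjusted p = 1.43e-13). In each of these genes the groups did not overlap.

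Hsd17b7, the ketoreductase of the same demethylation, had 6294, 7205 and 6484 normalized counts in the controls and 7479.5, 6967 and 7673 with dexamethasone, and it is the member that passed although its groups overlapped. Its log2 fold change of 0.15 (adjusted p = 0.0054) was 0.11 without control replicate 1 (adjusted p = 0.0552), 0.03 (adjusted p = 0.41) at the same total, and below 0 after quantile normalization (-0.0598, adjusted p = 0.164). Tm7sf2, a sterol reductase whose step the lamin B receptor can also perform, had 652, 805 and 694 and then 689, 607 and 694 normalized counts. These groups overlapped, with a log2 fold change of -0.11 (95% interval -0.27 to 0.05, adjusted p = 0.199). At the same total it was -0.22 (adjusted p = 0.00727) and after quantile normalization -0.17 (adjusted p = 0.0371), so Tm7sf2 passed downward in both scalings. Genes on the same strand overlapped 12.1% of its exon bases.

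Ebp (ENSMUSG00000031168), the isomerase that shifts the double bond in the sterol ring, went the other way. It had 5045, 5419.9 and 4939.5 normalized counts in the controls, replicates 1 to 3, and 2606, 2661 and 2789.5 with dexamethasone. All dexamethasone libraries lay below all controls, and their mean was 0.523 of the control mean, a log2 fold change of -0.93 (adjusted p = 4.15e-16, SE 0.0422), and the value passed the fold cut-off at the same total (-1.05) and after quantile normalization (-1.11). The desaturase that acts after it, Sc5d, had 5384, 5693 and 5542 and then 7526, 7100.4 and 7810.4 and rose with a log2 fold change of 0.43 (adjusted p = 4.19e-10). Dhcr7, the reductase that turns its dehydro precursor into cholesterol, had 2994, 3517 and 3287 and then 4114, 3718 and 3874 and rose by 0.26 (adjusted p = 5.57e-05). Msmo1, Nsdhl, Sc5d and Dhcr7 thus passed upward while Ebp passed downward.

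Per kilobase of exon, Cyp51 had the highest level of the 18 synthesis members in both groups, 4053 ± 226 normalized counts per kb in the controls and 6333 ± 269.8 with dexamethasone (SD, n = 3). In the controls Hmgcs1 followed at 3331 ± 218, and then Sqle, Ebp and Msmo1 at 2268 ± 112, 2223 ± 109 and 2066 ± 113, of which Sqle and Ebp differed by less than their SDs. With dexamethasone Acat2 came next after Cyp51 at 4045 ± 179, up from 1327 ± 107. It was followed by Msmo1 at 3763 ± 116, while Sqle and Hmgcs1, at 3301 ± 119 and 3205 ± 154, differed by less than their SDs. Ebp stood at 1163 ± 40.8. The lowest levels were those of Fdps, 59.7 ± 0.727 and 97.7 ± 8.09, and of Tm7sf2, 163 ± 18.0 and 151 ± 11.1. Levels per kb divide by the annotated exon bases of a gene, and which transcripts these cells used was not tested. Genes on the same strand overlapped 26.7% of the exon bases of Fdps. Only 66.1% of the positions of Acat2, 76.4% of those of Idi1, 76.5% of those of Fdps and 78.2% of those of Fdft1 were unique. The order of genes by level is therefore uncertain, and the part of exon length and shared sequence in it was not tested. The summed normalized counts of the 18 synthesis members were 99567, 110841 and 101153 in the controls, replicates 1 to 3, and 155864, 145549 and 155960 with dexamethasone.

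**Figure D3:**
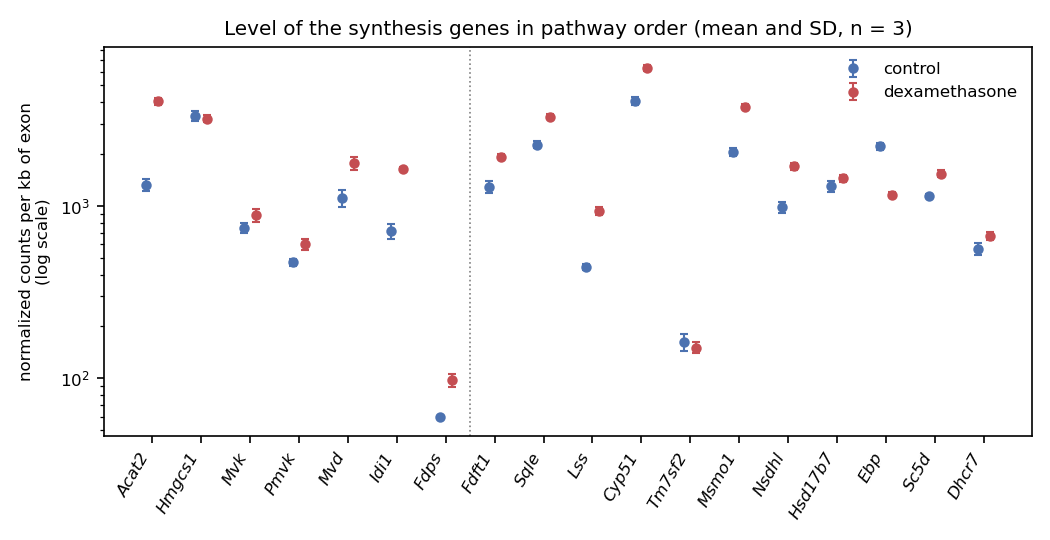
Mean normalized counts per kb of exon (y axis, log scale) of the 18 synthesis members in the order of the pathway (x axis), for control and dexamethasone, with the SD of 3 libraries. The dexamethasone points lie above the control points at most steps, within the SD of them at Hmgcs1 and Tm7sf2, and below them at Ebp.

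Of the genes that sense sterols and release the SREBP factors, 4 of 5 rose and Insig2 fell. Srebf2, which encodes the factor of cholesterol synthesis, had 15905, 17454 and 16708 normalized counts in the controls and 26131, 22952 and 23921 with dexamethasone, a change of 0.54 on the log2 scale (limma adjusted p = 4.13e-11, SE 0.0436). Srebf1, whose factor mainly drives fatty acid synthesis, had 4036, 4278 and 4127 and then 6032, 5555 and 5691, a log2 fold change of 0.47 (adjusted p = 8.92e-11). Scap, their escort protein, had 4642, 4813 and 4787 and then 6703, 6063 and 6080.2, a log2 fold change of 0.40 (adjusted p = 2.83e-09). In each the dexamethasone libraries lay above all controls, and none reached the required fold. Genes on the other strand overlapped 13.2% of the exon bases of Scap, which bears on its count if strand was not used. The Srebf1 to Srebf2 ratio within a library was 0.254, 0.245 and 0.247 in the controls and 0.231, 0.242 and 0.238 with dexamethasone, a log2 difference of -0.07, with an exact two-sided permutation p of 0.1, the smallest that 3 against 3 libraries allow.

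The Insig pair, which retain SCAP in the endoplasmic reticulum, moved apart. Insig1, itself a target of the SREBP factors, had 7292, 8449 and 7455 normalized counts in the controls, replicates 1 to 3, and 13575, 12697 and 13435 with dexamethasone, a log2 fold change of 0.78 (adjusted p = 6.2e-14, SE 0.0449). Insig2 had 6264, 6676 and 6426 and then 4035, 3762 and 3893, a log2 fold change of -0.73 (adjusted p = 1.25e-14, SE 0.0388). Neither gene overlapped between the groups. The Insig1 to Insig2 ratio, which does not depend on how libraries are scaled, was 1.16, 1.27 and 1.16 in the controls and 3.36, 3.38 and 3.45 with dexamethasone, a log2 difference of 1.51 (exact two-sided permutation p = 0.1, the smallest possible). Per kb of exon, Insig1 went from 2499.8 ± 203 to 4279 ± 153 and Insig2 from 1859 ± 59.8 to 1122 ± 39.4 normalized counts (SD, n = 3).

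Of the tested members of sterol transport, Stard4, Npc1 and Npc2 rose and the exporter Abca1 fell. Stard4 (ENSMUSG00000024378), a soluble protein that carries cholesterol between membranes, had 4464, 5068 and 4641 normalized counts in the controls, replicates 1 to 3, and 12627, 12066 and 12451 with dexamethasone. This was a 2.62-fold ratio and a change of 1.39 on the log2 scale (limma adjusted p = 6.65e-20, SE 0.0413), and among the members it was exceeded only by Acat2 in the fit used here. Npc1, the membrane protein that lets lipoprotein cholesterol out of lysosomes, had 6007, 6154 and 5746 and then 12777, 11652 and 11727. Its groups were separate, with a log2 fold change of 1.01 (adjusted p = 2.28e-17, SE 0.0398), which lay at the required fold of 1 and was 0.99 without control replicate 3, 0.97 without dexamethasone replicate 1, 0.99 with TMM scaling and 0.90 at the same total. Genes on the other strand overlapped 5.31% of its exon bases. Npc2, the soluble lysosomal protein that hands cholesterol to NPC1, had 19141, 20249 and 19265 and then 30494, 29904 and 31671 and rose by 0.65 on the log2 scale (adjusted p = 4.21e-14). Abca1, which exports cholesterol to lipid-poor apolipoproteins and is a target of LXR, had 401, 399 and 376 and then 231, 225 and 215 normalized counts. All dexamethasone libraries lay below all controls, with a log2 fold change of -0.81 (adjusted p = 1.08e-08, SE 0.0878).

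**Figure D4:**
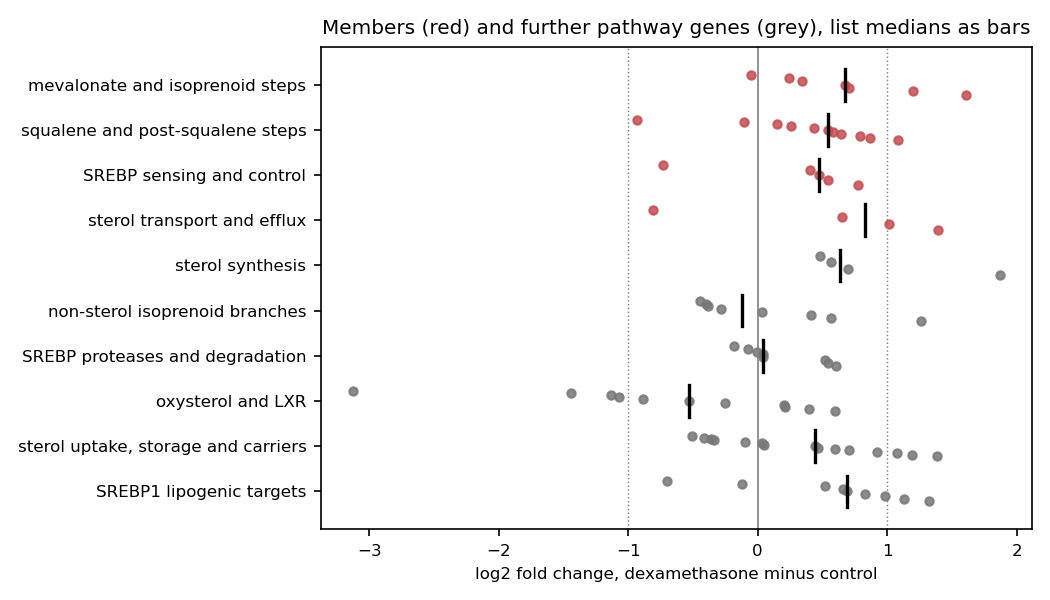
Log2 fold change, dexamethasone minus control (x axis), of the members by role (red) and of further pathway genes by list (grey), with the median of each list as a bar. Medians run from -0.53 for the oxysterol and LXR genes to 0.83 for the members of sterol transport.

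Further genes around the pathway, 55 of them tested, were taken as lists. Of these, 29 passed upward and 19 downward, and 7 were called higher and 4 lower, with a median log2 fold change of 0.21. The shares called higher (12.7%) and passing downward (34.5%) lay near the 11.7% and 35.2% of all tested genes, and 52.7% passed upward, where 37.2% of all tested genes did so. The 4 remaining genes of sterol synthesis all passed upward, between 0.48 and 1.87, and 1 was called. They include Acat1, the mitochondrial thiolase (0.48, limma adjusted p = 9.5e-12), and Erg28, a scaffold of the demethylation complex, named after its values were seen (0.70, adjusted p = 3.93e-13). The proteases and ubiquitin ligases that act on the SREBP factors and their partners had a median near 0. Of 9 genes listed 8 were in the table, 3 of them passed upward (37.5%, near the 37.2% of all tested genes) and 1 downward, and 0 were called, with a median of 0.04. Mbtps1, the protease that makes the first cut, had a log2 fold change of -0.01 (adjusted p = 0.842), which passed downward at the same total (-0.12, adjusted p = 0.000903), while Rnf145, a ligase gene, rose by 0.54 (adjusted p = 9.72e-13).

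Among the oxysterol and LXR genes more passed downward than upward. Of 11 tested, 7 passed downward (63.6%, where 35.2% of all tested genes did so) and 4 upward (36.4%, where 37.2% did so). Of the 11, 4 were called lower, where 10.6% of all tested genes were, and 0 higher, where 11.7% were. The median was -0.53. Nr1h2, the LXR receptor found in most tissues, fell by 0.25 on the log2 scale (adjusted p = 1.09e-05), and Mylip, a ligase that removes lipoprotein receptors, fell by 0.88 (adjusted p = 2.8e-14). Lpcat3, an enzyme that remodels phospholipids, rose by 0.20 (adjusted p = 8.33e-05), but did not pass after quantile normalization (0.0524, adjusted p = 0.19). The genes called lower are named after their values were seen. Smpdl3a, a phosphodiesterase gene that LXR induces, had 521, 473 and 509.7 normalized counts in the controls and 49.6, 52.3 and 69.8 with dexamethasone, a log2 fold change of -3.12 (adjusted p = 6.19e-17). Nr1h3, the second LXR receptor, had 44.1, 41.1 and 49.2 and then 20.0, 9.81 and 19.8, a log2 fold change of -1.44 (adjusted p = 0.000101). Ch25h and Cyp27a1, which make oxysterols, were also low in reads, with means of 62.6 ± 5.12 and 58.7 ± 6.79 in the controls and 28.6 ± 7.22 and 27.4 ± 2.72 with dexamethasone (SD, n = 3).

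Genes of uptake, storage and lipid carriage passed upward in 8 of 15 tested (53.3%, where 37.2% of all tested genes did so). Downward 5 passed (33.3%, where 35.2% did so). Of the 15, 3 were called higher (20%, where 11.7% of all tested genes were) and 0 lower, with a median of 0.45. The lipoprotein receptor genes Lrp1 and Vldlr rose by 0.45 and 0.59 on the log2 scale (limma adjusted p = 9.32e-09 and 1.01e-13). Among those named after their values were seen, Soat1, which esterifies cholesterol for storage, had 6996, 7318 and 7146 normalized counts in the controls and 16292, 16641 and 16185 with dexamethasone, a log2 fold change of 1.19 (adjusted p = 3.61e-20). Scarb1, a receptor for high-density lipoprotein, rose by 1.07 (adjusted p = 1.77e-17), and Lipa, the lysosomal lipase that frees cholesterol from its esters, fell by 0.41 (adjusted p = 1.76e-10). Nceh1, another hydrolase of cholesteryl esters, also named after its values were seen, had a value of 0.04 (adjusted p = 0.41).

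Within each group replicate 2 kept the same place over most members. Control replicate 2 had the highest value of its group in 25 of the 27 tested members (92.6%), where it was highest in 48.7% of all tested genes. Dexamethasone replicate 2 was the lowest of its group in 24 (88.9%), where it was lowest in 44.7% of all tested genes, and it was highest in 0. The other replicates had no such fixed place with dexamethasone, where replicate 1 was highest in 16 members and replicate 3 in 11, and control replicate 1 was lowest in 20 and replicate 3 in 7. The total of the normalized counts was also highest in control replicate 2 among the controls (79441523, against 76222546 and 77642956 in replicates 1 and 3) and lowest in dexamethasone replicate 2 (82325568, against 85765632 and 84413946), and the part of library scaling in this order was not tested. The coefficient of variation of the members was 1.22% for Fdps to 11.3% for Mvd in the controls, with a median of 5.48%, and 2.32% for Stard4 to 8.72% for Mvd with dexamethasone, with a median of 4.56%. Without control replicate 2 the median log2 fold change of the members was 0.58, and without dexamethasone replicate 2 it was 0.58.

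**Figure D5:**
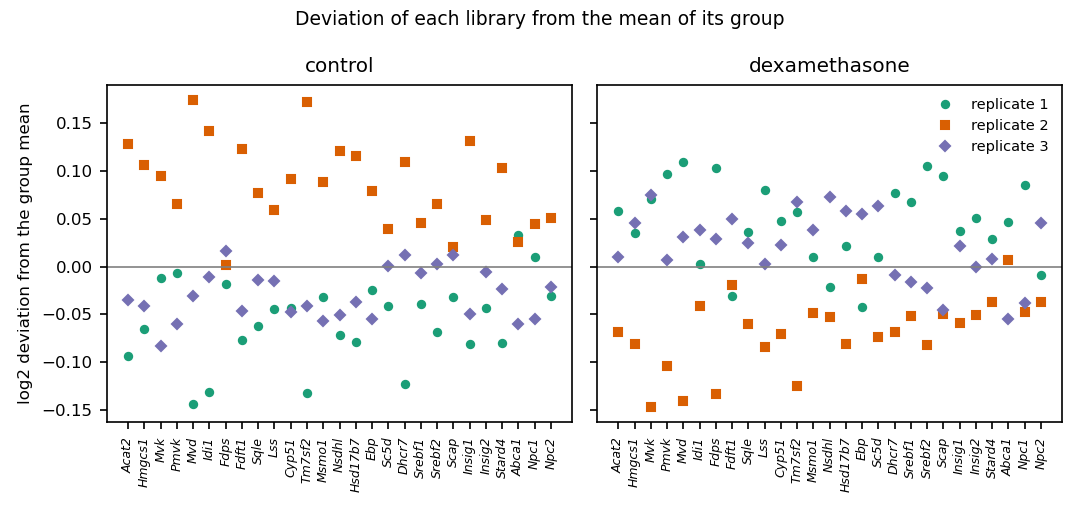
Deviation of each library from the mean of its group on the log2 scale (y axis) for each tested member (x axis), with controls and dexamethasone in separate panels and 1 series of points per replicate. Control replicate 2 lies above 0 in most members and dexamethasone replicate 2 below 0.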

How the data were processed

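RNA was measured in 3 control and 3 dexamethasone libraries, made with the KAPA stranded mRNA kit. The submitters' processing notes name bcl2fastq, STAR 2.7.10a, DESeq2 1.36.0 and GRCm39, and the annotation release and the strand setting are not given in the sources used here. The deposited values are signal, namely gene counts that the authors divided by a DESeq2 size factor per library. 100% of the values were whole multiples of 1 read within 0.01 read, which gave 72596611 to 89910728 reads per library, and these recovered reads were used for the alternatives with edgeR 4.0.16 and DESeq2 1.42.0. Symbols (28087 of 29616 genes), exon lengths, overlaps and 75-base positions came from GENCODE M21 on GRCm38, from which no coordinates were taken. Promoters came from RefSeq on GRCm38.p6.

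The 17442 genes whose mean reached 10 normalized counts were compared with limma 3.58.1 (R 4.3.3; lmFit, eBayes with trend) on log2(normalized count + 1), two-sided, with Benjamini-Hochberg adjustment over all of them. The added 1 understates the change of low genes. A gene passed at an adjusted p-value under 0.05 and was called when its log2 fold change also reached 1. Errors are the SD of 3 libraries, and the limit of 3 reads for a count of 0 covers counting error only. A chi-square test compared the replicates. The limma, edgeR and DESeq2 steps were tested on simulated data.

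The members and the lists were chosen with earlier results of these data known, and no test was run over a list. The genes named are all members, the 3 tested genes of highest mean in each further list, the 3 of highest mean in each marker list, and others where the text says so. Some genes that this rule gives are not reported here. Replicate numbers do not pair the libraries: deviations of same-numbered libraries correlated at -0.0999, -0.105 and -0.0199. Alternatives were other pseudocounts, filters, scalings and tools, a replicate block and leaving out each library.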

Additional observations from a re-analysis of the deposited data

How the results depend on the processing

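With all libraries rescaled to the same total, 3 members were called higher and 1 lower, 5 passed downward, 1 did not pass, the median was 0.43 and that of all genes -0.11. After quantile normalization 3 were called higher and 1 lower, 5 passed downward, the median was 0.35, and 4 further genes were called higher. With edgeR 1 member did not pass, since Hmgcs1 had a log2 fold change of -0.08 (adjusted p = 0.0422). At a mean of at least 100, 1 further gene was called lower, and 1350 of all genes were called higher and 820 lower, because fewer genes were tested. With the adjusted p-value alone, 22 members were called higher and 3 lower, 29 further genes higher and 19 lower, and 6497 of all genes higher and 6148 lower. Single genes changed sign near 0: at the same total and after quantile normalization, Dhdds from 0.03 to -0.0816 and -0.145, which passed (adjusted p = 0.0256 and 0.000348). Hsd17b7 was -0.0598 after quantile normalization (adjusted p = 0.164), and did not pass without the trend either (adjusted p = 0.108). Mbtps1 ranged from -0.0436 to 0.0120 when each library was left out, and passed downward at the same total (-0.123) and after quantile normalization (-0.22). Mvk did not pass after quantile normalization (0.10, adjusted p = 0.0821).

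With the replicate block, whose numbers do not pair these libraries, 5 members were called higher and 22 passed upward and 3 downward, as without it, and all genes called were 2035 higher and 1862 lower. Leaving out 1 library gave 4 to 5 members called higher, 21 to 22 passing upward and a median of 0.51 to 0.58. Of 486 comparisons of a member with an alternative, 476 kept direction and side of the adjusted p of 0.05, 5 gained and 4 lost it, and 1 reversed. Depth did not limit the tested members, of which Fdps and Abca1 had the lowest counts, and only Abcg1 was at or under the limit of 3 reads.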

Other observations

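Of 8 tested genes of the side branches that use isoprenoids for other products, 3 passed upward (37.5%, where 37.2% of all tested genes did so). Downward 4 passed (50%, where 35.2% did so). Of the 8, 1 was called higher (12.5%, near the 11.7% of all tested genes), and the median log2 fold change was -0.12. Nus1, a subunit of the enzyme that makes dolichol, rose by 0.41 on the log2 scale (limma adjusted p = 1.04e-10), while its partner Dhdds had a value of 0.03 (adjusted p = 0.48). Fnta, the shared subunit of the protein prenyltransferases, fell by 0.28 (adjusted p = 3.2e-07). Pdss1 and Ggps1, named after their values were seen, went apart. Pdss1, which makes the tail of coenzyme Q, had 435, 432 and 431 normalized counts in the controls and 1076, 1062 and 974 with dexamethasone, in replicate order, a log2 fold change of 1.26 (adjusted p = 4.43e-15). Ggps1, which makes geranylgeranyl diphosphate, had 3732, 3941 and 3989 and then 3027, 2928 and 2958, a log2 fold change of -0.39 (adjusted p = 3.99e-09). Neither gene overlapped between the groups.

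Of the 9 tested fatty acid genes driven by the Srebf1 product, 7 passed upward (77.8%, where 37.2% of all tested genes did so). Downward 2 passed (22.2%, where 35.2% did so). Of the 9, 2 were called higher (22.2%, where 11.7% of all tested genes were) and 0 lower, and the median was 0.69. Fasn, fatty acid synthase, had 21975, 24778 and 23164 normalized counts in the controls and 62552, 54644 and 57629 with dexamethasone, a log2 fold change of 1.32 (adjusted p = 2.93e-18). Acly, which supplies cytosolic acetyl-CoA to both fatty acids and sterols, had 22779.9, 24951 and 23263 and then 40525, 36027 and 38097, a log2 fold change of 0.69 (adjusted p = 3.06e-13). Scd2, a desaturase, had overlapping groups and a log2 fold change of -0.12 (adjusted p = 0.0291), which did not pass without the trend (0.151), with the replicate block (0.0985), without control replicate 2 (0.222) or without dexamethasone replicate 2 (0.174). Elovl6, an elongase, and Me1, malic enzyme, were named after their values were seen, and had log2 fold changes of 1.13 (adjusted p = 7.65e-18) and -0.70 (adjusted p = 4.79e-15).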
